A study of Homo sapiens with 12 samples.

Results

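Of the 58907 genes in the deposited count table, 7 are described here: CX3CR1, CCR1, CCR2, CCR7, CXCR4, CCRL2 and CMKLR1, receptors through which chemokines and the chemoattractant chemerin act on myeloid cells. They were taken by gene symbol. Of the 7, 6 passed the filter on low counts that left 15252 genes to be tested, and CCR7 did not. The RNA is from a line the labels call PPRE-eGEP-THP-1, derived from THP-1, a line of human monocytic leukaemia. All cells were first turned into adherent macrophages by 48 h with the phorbol ester PMA (25 ng/mL), followed by 24 h of rest. For 24 h they then received lipopolysaccharide (100 ng/mL) with interferon gamma (20 ng/mL), the M1 state, or interleukin 4 and interleukin 13 (20 ng/mL each), the M2 state. During those 24 h they also received either DMSO as solvent control or 100 µM MCHP, monocyclohexyl phthalate, a monoester derived from the plasticizer dicyclohexyl phthalate. There were 4 groups, M1 DMSO, M1 MCHP, M2 DMSO and M2 MCHP, each with 3 libraries that the series' design text calls biological replicates. Every library comes from 1 leukaemia line treated in culture, and the labels name no other cell type.

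Chemokine receptors are G protein-coupled receptors with 7 membrane-spanning segments that couple mostly to inhibitory G proteins and steer cells along gradients of their ligands. CX3CR1 binds CX3CL1 (fractalkine), a chemokine made as a membrane-anchored protein that metalloproteases can shed, and it is used to tell monocyte and tissue macrophage populations apart. CCR2 draws monocytes out of the bone marrow toward CCL2, CCR1 responds to CCL3 and CCL5, CXCR4 responds to CXCL12 and holds leukocytes in the marrow, and CCR7 guides cells toward lymph nodes along CCL19 and CCL21. CMKLR1 is the signalling receptor for chemerin (the product of RARRES2), whereas CCRL2 binds chemerin without signalling of its own.

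The genes are spread over 4 chromosomes of hg38. CX3CR1 (ENSG00000168329) lies on chromosome 3 from 39263494 to 39281735 on the minus strand. CCR1 (ENSG00000163823, 46201709 to 46208396, minus strand), CCR2 (ENSG00000121807, 46353734 to 46360928, plus strand) and CCRL2 (ENSG00000121797, 46407163 to 46412997, plus strand) lie further along chromosome 3. CXCR4 (ENSG00000121966) is on chromosome 2 from 136114349 to 136118165, CCR7 (ENSG00000126353) on chromosome 17 from 40553769 to 40565472, and CMKLR1 (ENSG00000174600) on chromosome 12 from 108288044 to 108339341, each on the minus strand.

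RefSeq promoter windows (GRCh38.p14), 250 bases before a start site and 50 from it, were matched to 6 of the 7 genes, in 11 windows. Those of CX3CR1, the gene that differed with MCHP, and of CCR1, the gene with the highest level and the only one called higher in M1 with both DMSO and MCHP, are shown. The CX3CR1 window that starts furthest upstream is on the minus strand at chr3:39281686-39281985 and held none of the motifs searched, so it has no capitals. In the CCR1 window, minus strand at chr3:46208264-46208563, capitals mark a match to TTCNNNGAA, the form of the gamma-activated site.
CX3CR1 promoter window: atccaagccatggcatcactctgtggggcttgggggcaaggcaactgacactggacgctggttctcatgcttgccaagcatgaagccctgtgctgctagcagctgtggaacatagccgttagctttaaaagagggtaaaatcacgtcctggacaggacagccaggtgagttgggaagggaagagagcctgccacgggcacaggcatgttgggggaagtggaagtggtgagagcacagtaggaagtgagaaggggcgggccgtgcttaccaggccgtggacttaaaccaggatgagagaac
CCR1 promoter window: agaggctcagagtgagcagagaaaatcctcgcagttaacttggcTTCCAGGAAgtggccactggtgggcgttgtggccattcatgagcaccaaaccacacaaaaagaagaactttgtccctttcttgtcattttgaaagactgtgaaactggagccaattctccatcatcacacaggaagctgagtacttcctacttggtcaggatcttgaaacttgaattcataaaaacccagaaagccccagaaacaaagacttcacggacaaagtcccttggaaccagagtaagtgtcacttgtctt
The CCR1 match spans bases -206 to -198 from the start site. Another of the 3 CX3CR1 windows held a match to the same motif at -94 to -86, and the CMKLR1 window one at -200 to -192. Across 35116 RefSeq windows of this length, 7.66% held that motif on either strand. The nuclear receptor core hexamer AGGTCA, in 13.8% of windows, was found in CCRL2 at -69 to -64 and in CMKLR1 at -94 to -89 on the opposite strand. The STAT6-type spacing, with 4 bases between TTC and GAA (6.44% of windows), was found in the other CCRL2 window at -19 to -10. The PU.1-type site GAGGAAGT (2.59%), the direct repeat of AGGTCA with 1 base between (0.0228%, overlapping the single hexamer) and the interferon-stimulated response element searched as a pair of GAAA with 2 bases between (3.57%) were found in none of the 11 windows. Windows of CCR2 and CXCR4 held none of the 6 motifs, each searched on both strands. A match is a description of letters, not of binding.

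Libraries held 14352202 to 16871233 counts. M2 DMSO replicate 1 stood apart: over tested genes its log2 deviation from the other libraries of its group had an SD of 0.445, against 0.315 to 0.352 in the other 11, so a log2 fold change, list median or number of called list genes that it moved by over 1.5 times, or whose call or sign it changed, is also given without it. Of 12 monocyte and macrophage markers, 11 passed the filter, and CD68 did not (36 counts in all 12 libraries). Their summed level was 7322 to 7619 CPM (gene counts relative to TMM-scaled library sizes) in M1 DMSO, 7064 to 7249 in M1 MCHP, 6035 to 6745 in M2 DMSO and 5730 to 6085 in M2 MCHP. All 10 M1 markers were higher in M1 than in M2 with DMSO (median log2 difference 7.51), and 7 of them were under 1 CPM in M2 DMSO. Of 7 tested M2 markers, 4 were lower in M1 and 1 was higher. Of all tested genes, 21.6% were called higher in M1 and 20.9% lower. Markers of T and NK cells summed to 5.57 to 10.4 CPM and those of B cells to 1.18 to 1.65 CPM, with CD2 and MS4A1 at 0 in all libraries. The fibroblast and adipocyte list summed to 117 to 138 CPM in M1 and 25.3 to 34.3 in M2, with DCN at 0 throughout. COL1A1, a collagen chain, made up nearly all of that sum (114 to 136 CPM in M1 and 21.9 to 31.5 in M2). The endothelial and epithelial list summed to 24.4 to 28.0 CPM in M1 and 57.3 to 94.6 in M2, with EPCAM at 0 and VWF, the von Willebrand factor, at 21.7 to 25.3 CPM in M1 and 54.9 to 92.7 in M2. Erythroid and granulocyte markers summed to 6.01 to 11.0 CPM over all libraries.

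CCR1 was the most abundant of the 7 transcripts in every group, and the chemerin receptor CMKLR1, CCR2 and CCR7 were the least abundant. Per kilobase of gene model, CCR1 stood at a mean of 78.6 CPM/kb in M1 DMSO, 78.0 in M1 MCHP, 27.1 in M2 DMSO and 25.7 in M2 MCHP. On the same scale, at least 89.7% of tested genes lay below CCR1 in each group and 97% in both M1 groups. CXCR4 came next in M2 (13.8 CPM/kb with DMSO, 13.9 with MCHP), followed by CCRL2 (6.22 and 5.15) and CX3CR1 (4.10 and 1.86). In M1, CCRL2 was above CXCR4 with MCHP (6.09 and 5.00 CPM/kb), while with DMSO their libraries overlapped (5.43 and 5.14). CX3CR1 followed in each group, at 2.13 CPM/kb in M1 DMSO and 1.27 in M1 MCHP. The 3 scarce transcripts ranged from 0.0309 CPM/kb (CCR7, M2 MCHP) to 0.532 (CMKLR1, M2 MCHP), and CMKLR1 overlapped CCR2 in both DMSO groups and CCR7 in M1 MCHP.

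**Figure D1:**
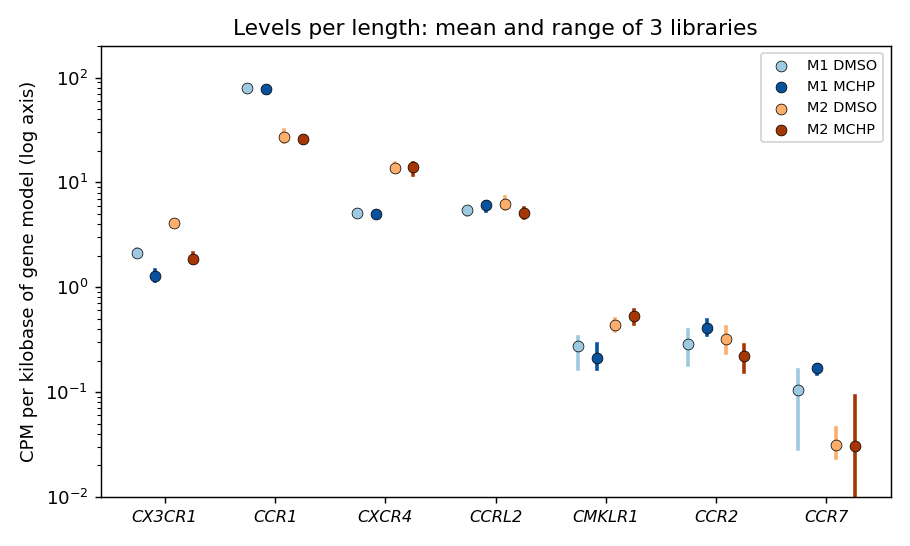
Level of each receptor transcript in CPM per kilobase of gene model (log axis) in the 4 groups; points are means of 3 libraries and vertical lines run from the lowest to the highest library (clipped at the axis floor for CCR7 in M2 MCHP, where 2 libraries had 0 counts). CCR1 lies highest in all groups, and CX3CR1 in M2 DMSO (4.10) lies above its other 3 groups.

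MCHP against DMSO asks whether the phthalate monoester changed these receptors while cells were being polarized. In M2, CX3CR1 was lower with MCHP, and it was the 1 receptor of the 6 tested that was called, where 5.11% of all tested genes were called, 2.18% in the lower direction. CX3CR1 read 15.8, 14.1 and 15.0 CPM in the M2 DMSO libraries (250, 240 and 264 counts) and 7.81, 6.44 and 6.16 CPM in the M2 MCHP libraries (121, 111 and 90 counts). Every MCHP library was below every DMSO library, as groups were for 20.8% of all tested genes in either direction. The means were 15.0 ± 0.82 and 6.81 ± 0.88 CPM (SD, n = 3). On the log2 scale CX3CR1 changed by -1.14 ± 0.13 (SE), or 2.20-fold lower (95% interval -1.41 to -0.87, edgeR quasi-likelihood adjusted p = 4.03e-05). By p-value CX3CR1 ranked 25 of 15252. Without M2 DMSO replicate 1 the log2 fold change was -1.10 (adjusted p = 3.28e-06). In RNA from whole cultures, fewer cells with a transcript and less of it per cell cannot be told apart.

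Other markers moved in the same comparison. Of the 11 tested monocyte and macrophage markers, 4 were also lower with MCHP in M2, against 2.18% of all tested genes. These were CSF1R (-0.32), FCER1G (-0.47), TYROBP (-0.49) and LST1 (-0.45). The median over the list was -0.16, against -0.000336 over all tested genes. FCER1G read 104, 63.4 and 65.4 CPM in M2 DMSO, the first value from the library that stood apart, and 52.9, 60.7 and 53.7 in M2 MCHP. Its adjusted p was 0.0479 with all libraries, its log2 fold change was -0.20 without M2 DMSO replicate 1 (adjusted p = 0.0451), and its call was lost in 9 of the 12 fits without 1 library. In the fit without M2 DMSO replicate 1, 7 of the 11 markers were called lower, where 764 of 15629 tested genes were. None of the 4 was called when the M2 libraries were fitted alone (adjusted p = 0.0524 to 0.212). In M1 the median of the list was -0.14. Of 7 tested M2 markers, 4 were called with MCHP in M2, 3 lower and 1 higher, against 5.11% of all tested genes. Their median was -0.59 in M2 and -0.30 in M1, where none was called. The 10 M1 markers had a median of 0.37 with MCHP in M2 (range -3.45 to 2.65), with 1 called lower and none higher. In both M2 groups 7 of these 10 were under 1 CPM, so this median rests largely on few counts and shows no direction. The part of these marker lists in the CX3CR1 results was not tested. CX3CR1 is also known from T and NK cells. The T cell markers CD3D, CD3E and CD3G had 1, 3 and 1 counts in all 12 libraries together. The NK cell markers were detected in every library, NKG7 with 64 to 121 counts (4.01 to 7.12 CPM) and KLRD1 with 21 to 53 (1.42 to 3.12 CPM). With MCHP in M2, NKG7 was at -0.07 ± 0.18 (adjusted p = 0.884) and KLRD1 at -0.45 ± 0.25 (adjusted p = 0.352), with overlapping groups, and their part in the CX3CR1 results was not tested.

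In M1, CX3CR1 read 8.43, 7.48 and 7.44 CPM with DMSO (118, 111 and 117 counts) and 4.19, 4.43 and 5.31 CPM with MCHP (67, 61 and 81 counts). Again no library of one group reached the other, as for 15.9% of all tested genes. The log2 fold change was -0.74 ± 0.14 (1.67-fold lower, 95% interval -1.05 to -0.44, unadjusted p = 7.26e-05), and the adjusted p of 0.0652 missed the threshold of 0.05. None of the 6 tested receptors was called in M1 by edgeR or limma-voom, against 0.0852% of all tested genes by edgeR; 1, CX3CR1, was at an unadjusted p under 0.05 and was called by DESeq2. Without M2 DMSO replicate 1, a library outside the comparison that enters the shared estimate of spread, CX3CR1 in M1 was at -0.74 with an adjusted p of 0.00657. The responses in M1 and M2 differed by 0.39 ± 0.19 on the log2 scale (95% interval -0.016 to 0.80, adjusted p = 0.587), so a difference between the states was not shown. No receptor was called for this difference by edgeR, DESeq2 or limma-voom, against 0.164% of all tested genes by edgeR, and 1, CCRL2, was at an unadjusted p under 0.05.

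Ordered by level, CX3CR1 ran from M2 DMSO (15.0 CPM) through M1 DMSO (7.79) and M2 MCHP (6.81) to M1 MCHP (4.65). The middle pair overlapped, and the other neighbours did not.

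**Figure D2:**
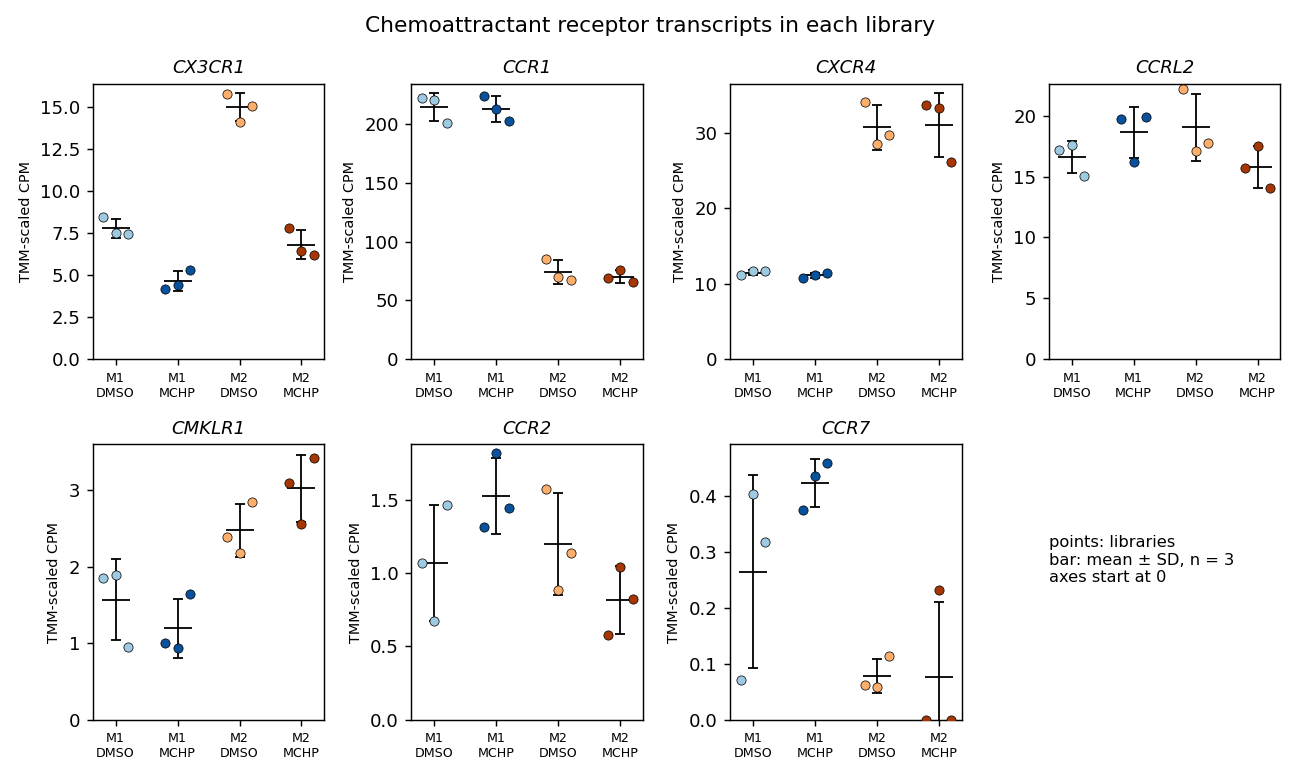
TMM-scaled CPM of each of the 7 transcripts in each library (points) with the mean ± SD of 3 libraries (bars); each panel has its own axis from 0. CX3CR1 is lower with MCHP in both states without overlap, and CCR1 and CXCR4 separate the M1 from the M2 libraries in opposite directions.

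The other 5 tested receptors were not called with MCHP in either state, and the libraries of none of them separated the solvent from the compound. CCR1, the receptor for CCL3 and CCL5, read 85.4, 69.6 and 67.0 CPM in M2 DMSO and 69.3, 76.1 and 65.3 in M2 MCHP, a log2 fold change of -0.074 (adjusted p = 0.71) that became 0.044 without M2 DMSO replicate 1. CXCR4 read 34.1, 28.4 and 29.6 CPM in M2 DMSO and 33.7, 33.2 and 26.1 in M2 MCHP, a log2 fold change of 0.02 (adjusted p = 0.959) whose sign turned when any of 4 libraries was left out and which was 0.098 without M2 DMSO replicate 1. Both genes therefore showed no direction in M2. In M1 they were at -0.01 and -0.04 (adjusted p = 0.998 for each), and the sign for CCR1 turned when M1 MCHP replicate 3, M1 DMSO replicate 1 or M1 DMSO replicate 2 was left out.

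CCRL2, the non-signalling chemerin receptor, read 22.2, 17.1 and 17.8 CPM in M2 DMSO and 15.8, 17.5 and 14.0 in M2 MCHP. The highest DMSO value is from the library that stood apart, and the groups overlapped. The log2 fold change was -0.27 ± 0.12 (unadjusted p = 0.0433, adjusted p = 0.249), and without that library it was -0.14 (adjusted p = 0.504). In M1, CCRL2 was at 0.17 ± 0.12 (adjusted p = 0.997), and the difference between the states was 0.44 ± 0.17 (95% interval 0.07 to 0.80, adjusted p = 0.464).

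CMKLR1, which signals for chemerin, read 2.39, 2.18 and 2.85 CPM in M2 DMSO and 3.10, 2.55 and 3.42 in M2 MCHP (log2 fold change 0.28 ± 0.26, adjusted p = 0.61). In M1 it was at -0.37 ± 0.32 (adjusted p = 0.998). CCR2, the receptor for CCL2, had 25, 15 and 20 counts in M2 DMSO and 9, 18 and 12 in M2 MCHP, and 15, 10 and 23 counts in M1 DMSO against 21, 25 and 22 in M1 MCHP. Its log2 fold changes were -0.54 ± 0.36 in M2 (adjusted p = 0.466) and 0.50 ± 0.35 in M1 (adjusted p = 0.994), with overlapping groups both times. CCR2 in M2 was at -0.30 without M2 DMSO replicate 1 (adjusted p = 0.742). The difference between the states was 1.03 ± 0.50 (adjusted p = 0.577). Over the 6 receptors the median log2 fold change with MCHP was -0.17 in M2 and -0.03 in M1, against medians of -0.000336 and 0 over all tested genes. The median of the 6 in M2 was -0.048 without M2 DMSO replicate 1.

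**Figure D3:**
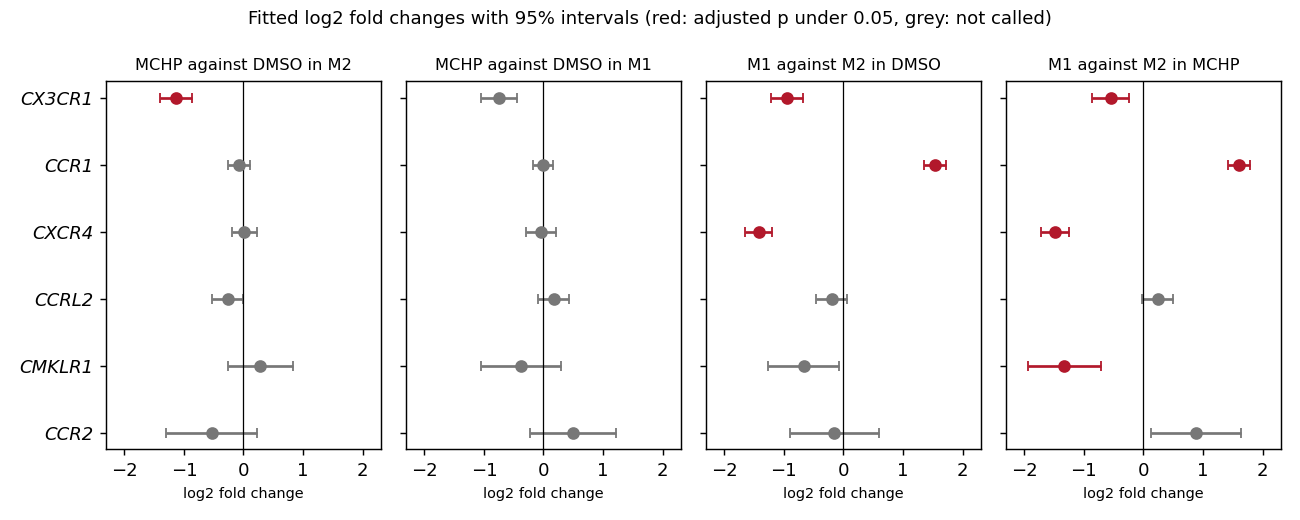
Fitted log2 fold change of the 6 tested receptors (points) with 95% intervals (lines) for MCHP against DMSO in M2 and M1 and for M1 against M2 in DMSO and in MCHP; red marks an adjusted p under 0.05. CX3CR1 is the receptor called with MCHP (-1.14 in M2), and CCR1 lies opposite to CXCR4 between the states.

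M1 against M2 shows which receptors went with each polarization. With DMSO, 3 of 6 receptors were called, CCR1 higher and CX3CR1 and CXCR4 lower in M1, where 42.5% of all tested genes were called, 21.6% higher and 20.9% lower. The libraries of 4 of the 6 did not overlap, as for 49.5% of all tested genes. With MCHP, 4 were called, CCR1 higher and CX3CR1, CXCR4 and CMKLR1 lower, against 44.6% of all tested genes (21.9% higher and 22.7% lower), and 5 did not overlap, against 57% of all tested genes. With 6 receptors these shares are near the background. The median log2 difference over the 6 was -0.43 with DMSO and -0.16 with MCHP. The M2 DMSO and M1 DMSO libraries serve in both kinds of comparison, so the values with MCHP and between states are not independent.

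CCR1 read 223, 220 and 201 CPM in M1 DMSO and 224, 213 and 202 in M1 MCHP, against 65.3 to 85.4 CPM in the 6 M2 libraries. The M1 and M2 libraries were far apart, and within each state MCHP and DMSO overlapped. The log2 difference, M1 against M2, was 1.54 ± 0.09 with DMSO (adjusted p = 3.22e-11) and 1.60 ± 0.09 with MCHP (adjusted p = 1.82e-11). CXCR4 ran the other way, with 11.1, 11.6 and 11.6 CPM in M1 DMSO and 10.8, 11.2 and 11.4 in M1 MCHP, against 26.1 to 34.1 in M2. Its log2 difference was -1.42 ± 0.11 with DMSO (adjusted p = 4.13e-09) and -1.48 ± 0.11 with MCHP (adjusted p = 2.44e-09), again with overlap between MCHP and DMSO within each state. Without M2 DMSO replicate 1 the differences with DMSO were 1.65 for CCR1 and -1.34 for CXCR4.

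CX3CR1 was lower in M1 by a log2 difference of -0.94 ± 0.13 with DMSO (adjusted p = 6.8e-06). With MCHP the difference was -0.55 ± 0.15 (adjusted p = 0.00474). CMKLR1 read 1.86, 1.89 and 0.95 CPM in M1 DMSO and 1.00, 0.94 and 1.64 in M1 MCHP, below the 2.18 to 3.42 CPM of the M2 libraries. Every M1 library was below every M2 library. Its log2 difference was -0.67 ± 0.28 with DMSO (adjusted p = 0.0656) and -1.32 ± 0.29 with MCHP (adjusted p = 0.000992).

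CCRL2 was at -0.20 with DMSO (adjusted p = 0.216) and 0.24 with MCHP (adjusted p = 0.129), and all neighbouring groups overlapped. The value with DMSO was -0.074 without M2 DMSO replicate 1 (adjusted p = 0.631). CCR2 was at -0.15 with DMSO (adjusted p = 0.764), a sign that turned without M1 DMSO replicate 2 (0.094) or M2 DMSO replicate 1 (0.085). With MCHP it was at 0.88 ± 0.36 (adjusted p = 0.0537), with M1 libraries above all M2 libraries. Leaving out M2 DMSO replicate 1, M1 DMSO replicate 2 or M2 MCHP replicate 2 brought that adjusted p to 0.0473, 0.0478 and 0.0473. Of the 50-base stretches of the transcripts of CX3CR1, CCR1, CCR7, CXCR4, CCRL2 and CMKLR1, none occurs in another gene.

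CCR7, the lymph node homing receptor, had 1, 6 and 5 counts in M1 DMSO, 6, 6 and 7 in M1 MCHP, 1, 1 and 2 in M2 DMSO and 0, 4 and 0 in M2 MCHP. M1 libraries tended to hold more counts, though M1 DMSO overlapped M2 DMSO. Summed and scaled to depth, M1 to M2 was 3.40 with DMSO (12 and 4 counts, exact 95% binomial interval 1.03 to 14.4) and 5.00 with MCHP (19 and 4 counts, 1.66 to 20.2). MCHP to DMSO was 1.57 in M1 (19 and 12 counts, 0.722 to 3.54) and 1.07 in M2 (4 and 4 counts, 0.198 to 5.72). These intervals cover counting error only.

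CCR1, CCR2 and CCRL2 belong to a chemokine receptor cluster on chromosome 3 that also holds XCR1 and CCR3, and these genes passed the filter. CCR1 had 26186 counts in the 12 libraries, and CCR3, whose span (46163604 to 46266706, plus strand) contains CCR1 on the other strand without a shared exonic base, had 172. CCR3 was higher in M1 by 1.99 with DMSO (61 and 17 counts, adjusted p = 0.00163) and by 3.08 with MCHP (84 and 10 counts, adjusted p = 3.81e-05), the direction of CCR1. No strand setting is given in the sources used here, so reads of the overlapping span cannot be told apart by strand. XCR1 had 46, 53, 40 and 48 counts in M1 DMSO, M1 MCHP, M2 DMSO and M2 MCHP and was not called in any comparison. With MCHP, edgeR called none of CCR1, CCR2, CCRL2, XCR1 and CCR3.

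Among 16 genes for ligands of these receptors, 8 passed the filter, and 5 of the 8 were lower with MCHP in M2, against 2.18% of all tested genes, with none higher. The median of the 8 was -0.46. Ligands of CCR2 made up most of them: CCL2, its principal ligand (-0.81 ± 0.15, adjusted p = 0.00319), CCL7 (-0.58 ± 0.11, adjusted p = 0.0044), CCL8 (-1.05 ± 0.16, adjusted p = 0.000878) and CCL13 (-1.32 ± 0.25, adjusted p = 0.00372), which is also on the M2 marker list. CCL5, a ligand of CCR1, was at -0.35 ± 0.05 (adjusted p = 0.000492). CCL2 and CCL7 were no longer called when the M2 libraries were fitted alone (adjusted p = 0.0564 and 0.0651). Against a minimum log2 change of 0.5, by construction a stricter test, 0 of the 8 were called, where 19 of all tested genes were.

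CCL2 read 122, 75.2 and 72.8 CPM in M2 DMSO, the first value being the library that stood apart, and 50.5, 59.6 and 44.0 in M2 MCHP. All MCHP libraries lay below the DMSO libraries, and without M2 DMSO replicate 1 the log2 fold change was -0.52 (adjusted p = 4.12e-05). CCL8 read 3.72, 4.18 and 3.14 CPM in M2 DMSO and 2.07, 1.74 and 1.51 in M2 MCHP, also without overlap. CCL13 read 3.91, 4.59 and 5.81 CPM in M2 DMSO and 2.52, 1.22 and 2.05 in M2 MCHP, without overlap. In M1, none of the 8 ligands was called by edgeR, DESeq2 or limma-voom (median -0.05), and 1 was at an unadjusted p under 0.05. Without M2 DMSO replicate 1, 2 of the 8 were called there, CCL3 (0.25, adjusted p = 0.0247) and CCL5 (-0.16, adjusted p = 0.0247).

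The CX3CR1 ligand CX3CL1 was low in M2 and scarcer still in M1. It had 54, 66 and 47 counts in M2 DMSO, 47, 49 and 29 in M2 MCHP, 3, 3 and 4 in M1 DMSO and 1, 1 and 5 in M1 MCHP. M1 and M2 libraries did not overlap, with a log2 difference of -3.84 ± 0.39 with DMSO (adjusted p = 1.84e-07). With MCHP in M2, CX3CL1 was at -0.33 ± 0.26 (adjusted p = 0.54). Between M1 and M2 with DMSO, 6 of the 8 ligands were called, against 42.5% of all tested genes (21.6% higher and 20.9% lower). CCL8 (5.68), CCL2 (1.25) and CCL7 (0.99) were higher in M1, and CX3CL1, CCL3 (-0.96) and CCL5 (-0.92) were lower. Ligands of the remaining receptors had few counts. CXCL12 (for CXCR4) and CCL19 (for CCR7) had 0 counts in all 12 libraries, which allows for up to 3, CCL21 had 3 counts in M2 DMSO and 2 in M2 MCHP and none in M1, and RARRES2 (chemerin) had 3, 0, 1 and 1 counts in M1 DMSO, M1 MCHP, M2 DMSO and M2 MCHP. MIF, another CXCR4 ligand, had 151 counts in all and shares its locus with the antisense gene MIF-AS1 (167 counts). AP000350.4, a protein-coding gene on the same strand as MIF (0 counts), overlaps it too. The counts of MIF are therefore uncertain, and its level cannot be read from them. The closely related CC chemokine genes may also share reads.

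**Figure D4:**
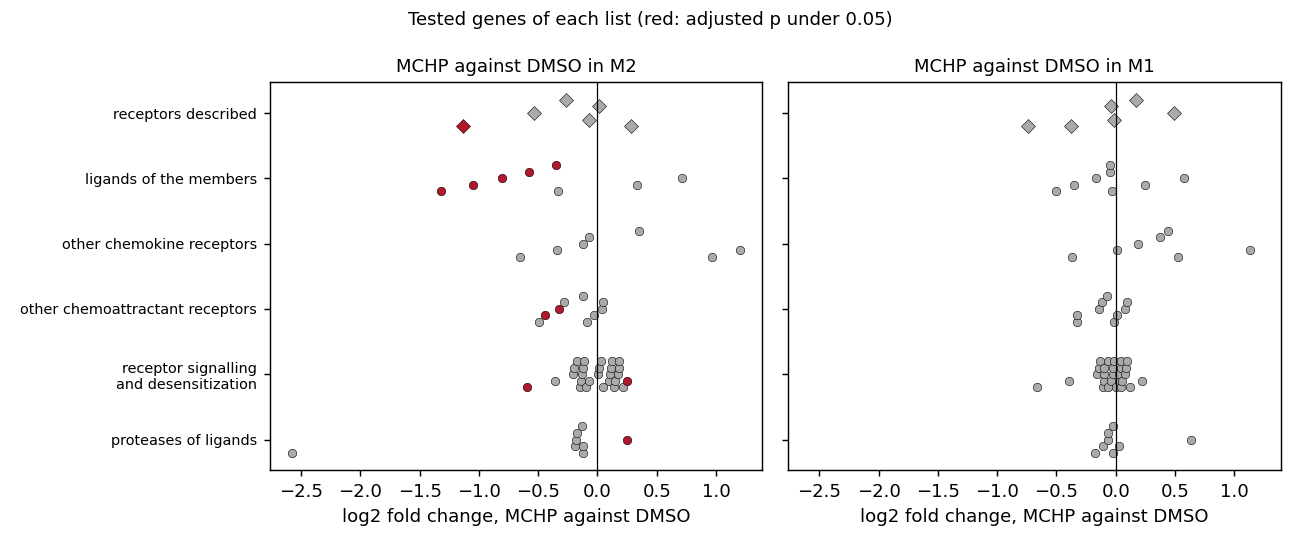
Log2 fold change with MCHP in M2 (left) and M1 (right) for the tested genes of each list, 1 point per gene, with the 6 tested receptors as diamonds; red marks an adjusted p under 0.05, and vertical offsets only separate points. In M2, 5 of 8 ligands lie to the left in red; the leftmost protease point is CTSL, which had 2 counts in M2 DMSO and 0 in M2 MCHP.

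Of 18 other chemokine receptors, 7 passed the filter, and none was called with MCHP by edgeR, DESeq2 or limma-voom in M2 or M1 (medians -0.07 and 0.37; 1 and 0 at an unadjusted p under 0.05). The median in M2 was 0.21 without M2 DMSO replicate 1. Between M1 and M2 with DMSO, CCR3 and the scavenging receptor ACKR3 (2.54, adjusted p = 0.00133) were higher in M1, against 21.6% of all tested genes. CXCR3 was lower (-1.02, adjusted p = 0.00235), against 20.9%. ACKR3 had 16, 21 and 11 counts in M1 DMSO and 3, 5 and 1 in M2 DMSO, so the size of its difference rests on few counts. Of 16 receptors for other chemoattractants, 9 passed the filter. With MCHP in M2, 2 of them were lower, against 2.18% of all tested genes. These were the complement receptor C3AR1 (-0.45, adjusted p = 0.00196) and CSF1R, the receptor for the macrophage growth factor CSF1 (-0.32, adjusted p = 0.00184). The median of the 9 was -0.12, and -0.19 without M2 DMSO replicate 1. Fitted on the M2 libraries alone, neither was called (adjusted p = 0.0651 and 0.0614). Between M1 and M2 with DMSO, 7 of the 9 were higher in M1, against 21.6% of all tested genes. Of these, the platelet-activating factor receptor PTAFR (3.74), C3AR1 (2.19) and the C5a receptor C5AR1 (0.89) were at the smallest p. The oxysterol receptor GPR183 was lower (-2.50), as were 20.9% of all tested genes.

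Downstream of the receptors, the share of signalling genes called with MCHP in M2 was near the background. Of 27 tested genes for G protein subunits, arrestins, receptor kinases, RGS proteins and effectors, 2 were called in M2, against 5.11% of all tested genes: RGS2, which speeds the shutdown of G proteins (-0.59, adjusted p = 0.00564), and the kinase subunit PIK3CG (0.25, adjusted p = 0.0469). Without M2 DMSO replicate 1, 8 of the 27 were called, 6 lower and 2 higher, where 1747 of 15629 tested genes were called. RGS2 was not called in the M2 libraries alone (adjusted p = 0.0723), and PIK3CG was lost in 9 of the 12 fits without 1 library. Of 8 tested proteases that cut or shed chemokines, the sheddase ADAM17 was higher with MCHP in M2 (0.25, adjusted p = 0.0406), a call lost in 10 of the 12 fits without 1 library; without M2 DMSO replicate 1, 3 of the 8 were called. In M1, edgeR, DESeq2 and limma-voom called no gene of either list, with 1 signalling gene and 0 proteases at an unadjusted p under 0.05. RGS2 was called in M1 when M2 DMSO replicate 1 was left out (-0.39, adjusted p = 0.0153). Between M1 and M2 with DMSO, 8 of the 27 signalling genes were higher in M1 and 9 lower, against 21.6% and 20.9% of all tested genes. PLCB2 (-1.78), PTK2B (1.13), ELMO1 (-0.93) and ARRB2 (-0.80) were at the smallest p. Among proteases, CTSS (1.79), MMP9 (0.33) and CTSL were higher in M1, and the macrophage elastase MMP12 was lower (-1.73). CTSL had 156 counts in M1 DMSO and 2 in M2 DMSO.

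The genes whose pattern was most like that of each receptor were found by the root mean square (RMS) difference of log2 CPM, centred on each gene's mean, over the 12 libraries. For CX3CR1 these were PTK7 (0.243), HVCN1 (0.247), ADGRD1 (0.284), AP1S3 (0.286) and RGS2 (0.286). All 5 were also called lower with MCHP in M2, at -0.59, -0.75, -0.95, -0.63 and -0.59, and none was called in M1; since likeness was measured on the same libraries, these values describe the choice. With the 4 group means in place of the 12 libraries, 0 of these 5 genes were among the most alike, so the names depend on the measure. Nearest to CCR1 were RALA (0.0683), CXCL8 (0.0777) and SRGN (0.0778), and nearest to CXCR4 were LIPA (0.0898), SERPINF1 (0.119) and ADK (0.121). CCRL2 was nearest to NXF1 (0.0822), VMP1 (0.0876) and SFT2D1 (0.0904). The scarce transcripts had more distant neighbours, LOX (0.229), C16orf86 (0.242) and ZNF620 (0.253) for CCR2 and SEPT3 (0.239), SLCO4C1 (0.260) and TAX1BP3 (0.269) for CMKLR1. RMS over libraries mixes pattern with counting noise, which is larger for rare transcripts.

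**Figure D5:**
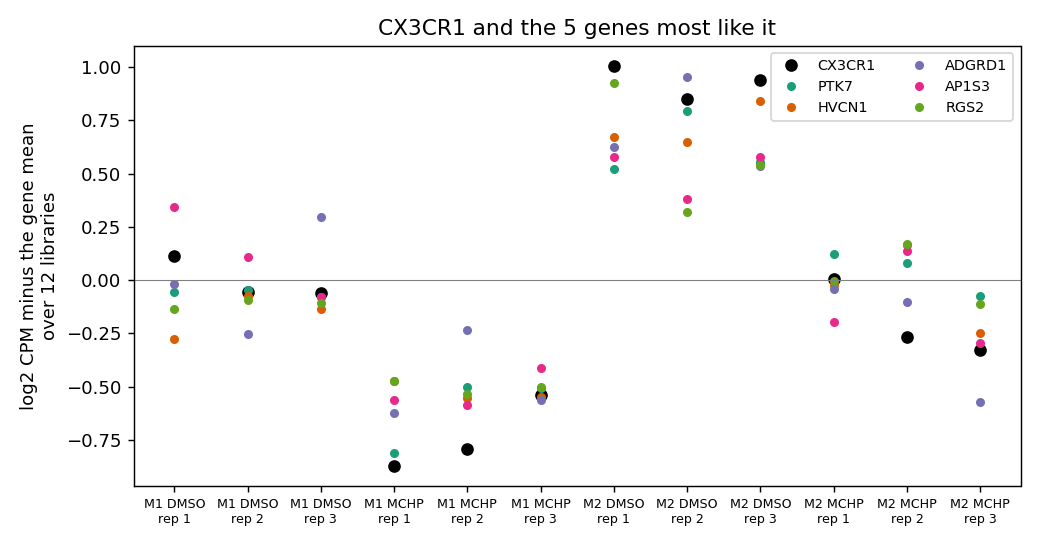
Log2 CPM of CX3CR1 (black) and the 5 genes most like it in each of the 12 libraries, minus each gene's mean over the libraries. All 6 genes lie highest in the M2 DMSO libraries and below their mean in the M1 MCHP libraries.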

How the data were processed

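Polyadenylated RNA of 12 cultures was sequenced. The authors deposited raw counts per gene with gene model lengths, as the file headers show. Builds and tools named in the submitters' processing notes, without roles, are DESeq2 1.20.0, featureCounts 1.5.0-p3, StringTie 1.3.3b, HISAT2 2.0.5, fastp and the genome build hg38. No strand setting or batch is given in the sources used here.

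The count table was tested with edgeR 4.0.16 (R 4.3.3). Genes were kept by filterByExpr over the 4 groups and scaled with TMM factors. All 12 libraries were fitted with 1 mean per group (8 residual degrees of freedom) and tested with the two-sided quasi-likelihood F-test. The p-values were adjusted by Benjamini-Hochberg over 15252 genes, and genes were called at an adjusted p under 0.05. Standard errors come from the F statistic. The likeness measure used a prior count of 2. The design text calls the libraries biological replicates without saying what separates them, so p-values measure the spread between these samples. The steps were tested on simulated data with 200 changed genes. Over the comparisons, 35.8% to 52.2% of 1.5-fold changes and 71.6% to 83.6% of 2-fold changes were recovered. Of the calls, 1.57% to 6.83% were false. The simulated data held no library that stood apart.

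Receptors and gene lists were chosen with earlier results of these data known. Named were all receptors, called ligands and other receptors (up to 6 per list and comparison), called signalling and protease genes (up to 4), and the nearest 5 or 3 genes by likeness. CD68, COL1A1, VWF, NKG7, KLRD1, the called myeloid markers, CCL3 in M1 and CCRL2's unadjusted p were named after values were seen. Alternatives were other scalings, no filter, a replicate block, DESeq2 1.42.0, limma-voom (limma 3.58.1), protein-coding genes only, a minimum log2 change of 0.5, only the libraries compared, and each library left out. Exact intervals on counts cover counting error only.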

Additional observations from a re-analysis of the deposited data

Results flagged for a closer look

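CCL8, a ligand of CCR2, responded to MCHP differently in the M1 and M2 states by the test of the difference itself: the log2 fold change was -0.03 in M1 and -1.05 in M2, a difference of 1.01 ± 0.18 (SE, edgeR adjusted p = 0.0222). Its level was 189 ± 2.58 CPM in M1 DMSO and 184 ± 11.8 in M1 MCHP, against 3.68 ± 0.52 in M2 DMSO and 1.77 ± 0.28 in M2 MCHP (SD, n = 3). Over 20 alternatives the difference ran from 0.91 to 1.13, with adjusted p from 0.000126 to 1. It was called in 9 of them and missed the threshold in limma-voom (adjusted p = 0.14), against a minimum log2 change of 0.5 and in 9 of the 12 fits without 1 library (up to 0.109 there, without M2 MCHP replicate 3).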

How the results depend on the processing

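CX3CR1 in M2 stayed lower and called in all 21 alternatives (log2 fold change -1.24 to -1.08, highest adjusted p 0.0088). In M1 it was called in 4 of 21: without a filter (-0.75, adjusted p = 0.0106), by DESeq2 (-0.75, 0.00808), with only the libraries compared (-0.75, 0.00609) and without M2 DMSO replicate 1 (-0.74, 0.00657), so that 1 receptor in place of 0 was called there; leaving out 1 library gave 0 to 1 receptors, and over all alternatives the value ran from -0.85 to -0.67. Between M1 and M2 with MCHP it missed a minimum log2 change of 0.5 (-0.55, adjusted p = 0.565), by construction a stricter test. Scaling by library size alone called 5 receptors between M1 and M2 with DMSO, adding CCRL2 (-0.33, adjusted p = 0.0435) and CMKLR1 (-0.80, 0.0284); it moved the median of all genes there by -0.128 and the split from 3296 higher and 3193 lower to 2395 and 4532, and in M2 with MCHP from 446 and 333 to 306 and 465. With MCHP, 4 to 5 receptors were called between states when 1 library was left out.

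Signs turned for receptor values near 0. For CXCR4 with MCHP in M2, library size alone gave -0.0295, and leaving out each library gave -0.0457 (M2 MCHP replicate 1) to 0.114, negative also without M2 MCHP replicate 2, M2 DMSO replicate 2 or M2 DMSO replicate 3. Left-out libraries gave CCR1 -0.139 to 0.0440 in M2 (positive without M2 DMSO replicate 1) and -0.0550 to 0.0257 in M1 (positive without M1 MCHP replicate 3, M1 DMSO replicate 1 or M1 DMSO replicate 2). The difference of responses ran from -0.0544 (without M2 DMSO replicate 1) to 0.128 for CCR1 and from -0.159 to 0.0048 (without M2 MCHP replicate 1) for CXCR4. CCR2 between states with DMSO ran from -0.454 to 0.0941, positive without M1 DMSO replicate 2 or M2 DMSO replicate 1. For these the cause was not tested.

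Counts over all genes moved more. In M2 with MCHP 779 genes were called, against 1747 without M2 DMSO replicate 1, 183 with only the libraries compared and 19 at the minimum change; in M1 13, against 159, 295 and 0; for the difference 25, against 385 without that library. Of 2 called signalling genes and 1 protease in M2, 8 and 3 were called without it, and 2 ligands in place of 0 in M1. Libraries with the same replicate number did not deviate alike from their group means: over 18 pairs of deviations r was -0.0478 to 0.0385. A low r over all tested genes, rare ones included, does not show that the replicates share no culture day or batch. A replicate block gave CX3CR1 -1.14 in M2 (adjusted p = 0.000131) and -0.74 in M1 (0.104), changed no receptor's call, and took the count over all genes from 779 to 692 in M2 and from 13 to 5 in M1. At 4 to 19 summed counts per group, CCR7 differences below several fold were not detectable.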

Other observations

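Several genes known to be abundant in macrophages had few counts in this table; they were picked after their values were seen. CD68 had 3, 17, 5 and 11 counts in M1 DMSO, M1 MCHP, M2 DMSO and M2 MCHP, and 2 overlapping genes in the table, the antisense AC016876.1 with 466 counts in all and AC016876.2 with 11. CTSL had 156, 150, 2 and 0 counts in the same order, with no overlapping gene. MIF had 30, 45, 30 and 46, and the overlapping genes MIF-AS1 and AP000350.4.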
